A study of Mus musculus with 8 samples.

Results

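The 10 transcripts of platelet integrins and of the proteins that switch integrins on from inside the cell were examined, out of 43548 genes in the platelet table. They are the 10 genes named Itga2b, Itgb3, Itga2, Itga6, Itgb1, Fermt3, Tln1, Rap1b, Rasgrp2 and Apbb1ip, chosen by name for their role. All 10 were found, each in 1 row, and 9 had a mean of at least 1 FPKM over the 8 mice and were tested.

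RNA was sequenced from washed platelets of 4 TNFdARE mice and 4 control littermates, aged 8 to 12 weeks, on a C57BL/6J background. TNFdARE mice carry a germline deletion of the AU-rich elements of Tnf, an instability signal in the transcript, in every cell and not in platelets alone, and therefore make more TNF-α. The labels do not say whether 1 or both copies carry it. The control mice are littermates labelled as lacking the allele, and all 8 mice are labelled as baseline. By the labels, each group holds 2 females and 2 males, although other label text speaks of 3 mice per group and of male mice of 5.2 months. All 8 libraries carry the same batch label. The values were read as FPKM, which divide the fragments of a gene by its length and by the size of the library. That unit is inferred, and comparisons of level between genes hold per length only if it is right.

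Integrins are receptors made of 1 alpha and 1 beta subunit. On a resting platelet they stay in a bent form that binds ligand weakly. When an agonist raises calcium, CalDAG-GEFI (gene Rasgrp2) loads the small GTPase Rap1b with GTP, and talin-1 (Tln1) and kindlin-3 (Fermt3) then bind the short cytoplasmic tail of the beta subunit and open the receptor, which is known as inside-out activation. RIAM (Apbb1ip) is an adaptor that can join Rap1 to talin. The main platelet integrin, αIIbβ3 (Itga2b and Itgb3), binds fibrinogen and von Willebrand factor and holds platelets together in an aggregate, while α2β1 (Itga2 and Itgb1) binds collagen and α6β1 (Itga6 and Itgb1) binds laminin.

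The cytoplasmic tails on which these steps converge are shown as coding sequence, 5′ to 3′ through the stop codon, from the GENCODE M21 transcripts of the GRCm38 (mm10) mouse genome. In the alpha tails the capitals mark the codons of the conserved motif next to the membrane, where the alpha tail is held to the beta tail at rest. They start at codon 1017 in Itga2b, 1154 in Itga2 and 1040 in Itga6.
Itga2b: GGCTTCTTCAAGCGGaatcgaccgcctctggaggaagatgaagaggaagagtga
Itga2: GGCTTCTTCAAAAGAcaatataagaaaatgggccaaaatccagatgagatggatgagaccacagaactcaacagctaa
Itga6: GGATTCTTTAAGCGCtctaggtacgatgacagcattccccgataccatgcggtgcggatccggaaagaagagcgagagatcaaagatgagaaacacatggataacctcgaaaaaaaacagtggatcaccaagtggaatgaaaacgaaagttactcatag

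The motif is shared, and in the transcripts used what follows it differs in length, so that the stretch shown is 54 bases in Itga2b, 78 in Itga2 and 159 in Itga6. Each is from the transcript with the longest coding sequence, of 10 annotated for Itga2b, 2 for Itga2 and 8 for Itga6. Which transcript these platelets carried was not tested, so the codon numbers and lengths hold for the transcripts shown. For the beta subunits the last 60 bases are shown, and the capitals mark the codons of the asparagine-to-tyrosine motifs. The motif nearer the membrane is the one talin binds, and the one nearer the end is the one kindlin binds.
Itgb3: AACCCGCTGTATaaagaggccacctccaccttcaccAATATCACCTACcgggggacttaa
Itgb1: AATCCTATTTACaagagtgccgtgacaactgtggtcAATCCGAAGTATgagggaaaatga

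Both motifs stand at the same positions in both beta tails, yet 29 of 60 bases (48.3%) were identical. No stretch of Itgb3, Itgb1, Itga2b or Itga2 of at least 150 bases matched a transcript of another gene at 95% identity.

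The platelet identity of the libraries was checked first. All 12 platelet and megakaryocyte markers, such as Pf4 and Gp9, passed the filter, and their summed FPKM was 1149 to 1626 in control mice and 1119 to 1263 in TNFdARE mice. Of 12 leukocyte markers, 6 were listed at 0 in all 8 libraries (Ptprc, S100a8, Cd3e, Cd79a, Itgam and Ms4a1), while Lyz2, the lysozyme of myeloid cells, was above 0 in all 8 (30.8 to 50.3 FPKM in control and 11.9 to 35.8 in TNFdARE mice) and Cd74 reached 13.7. S100a9, a neutrophil protein, was 10.3 FPKM in TNFdARE mouse 4 and at 0 in the other 7, and Csf1r was at most 0.276, in 3 TNFdARE mice and no control. The list summed to 56.9 to 83.6 FPKM in control libraries and 43.9 to 65.5 in TNFdARE libraries. Of 4 endothelial markers, Cdh5, Tek and Emcn were listed at 0 in all 8 libraries and the sum reached 0.0204 FPKM in TNFdARE mouse 3 alone. The 7 erythroid markers, led by globins, summed to 748, 853, 2196 and 830 FPKM in control mice 1 to 4. In TNFdARE mice 1 to 4 they summed to 6912, 1105, 2927 and 14640 FPKM. The number of genes above 0 was 1479 to 2742 in control mice, and in TNFdARE mice 1 to 4 it was 818, 3187, 4917 and 1225. The number of reads is unknown, and a listed 0 can be a failed estimate. TNFdARE mice 1 and 4 had the most erythroid marker RNA and the fewest genes above 0. The log2 fold change of each tested member is therefore given with and without them. TNFdARE mice 2 and 3 had more genes above 0 than any control, and the erythroid sum of mouse 3 was also above every control. Leaving out mice 1 and 4 thus sets the libraries with the most genes above 0 against the controls, and does not match the groups in detection. In bulk platelet RNA, fewer cells of a type and less RNA per cell cannot be told apart.

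Summed over integrins and activators, 2 TNFdARE mice were lower than all the others. The 10 transcripts summed to 387, 310, 237 and 263 FPKM in the control mice, in the order 1 to 4, and to 138, 253, 285 and 164 in the TNFdARE mice. TNFdARE mice 1 and 4 were the lowest of the 8, and TNFdARE mice 2 and 3 lay within the control range. Leaving out AY036118, an RNA that alone held 33.7% to 67.7% of each library, the 10 made up 0.65% to 1.16% of the rest in control mice and 0.39% to 0.88% in TNFdARE mice. In the plot of summed level against library features, the pair of lowest libraries were also those with the most erythroid marker RNA and the fewest genes above 0. The part of the erythroid RNA and of gene detection in the low sums was not tested.

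**Figure D1:**
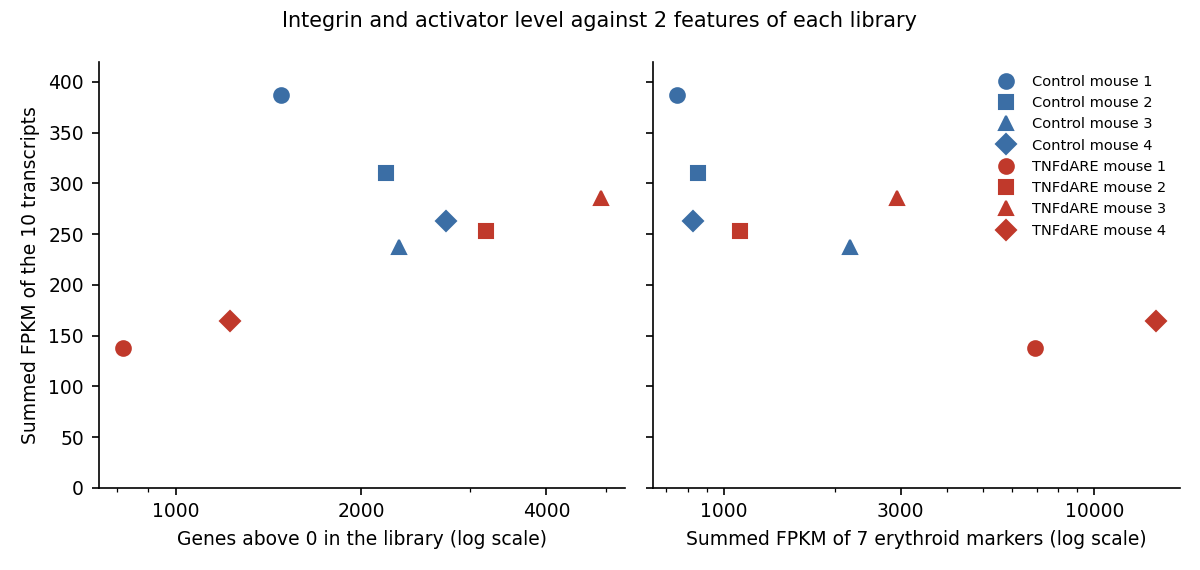
Summed FPKM of the 10 transcripts (vertical axis) against the number of genes above 0 (left) and the summed FPKM of 7 erythroid markers (right), both on log axes, with 1 point per mouse. TNFdARE mice 1 (138) and 4 (164) lie below the other 6 mice, which span 237 to 387.

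Set side by side per length, the transcripts ran from 64.9 to 0.0041 FPKM. Itga2b (mean of the 8 mice 64.9 FPKM) and Rasgrp2 (62.5) were at the top, ranking 70th and 74th among all genes. Itga2b was above Rasgrp2 in 5 of 8 mice, so their order is not settled by these mice, and Rasgrp2 was above Fermt3, the next, in 6 of 8. Fermt3 (25.8), Tln1 (24.7), Itgb1 (23.2), Itga6 (22.5) and Itgb3 (20.7) lay close together, and within these 5 each was above the next in only 4 or 5 of 8 mice. Rap1b (9.04) was below Itgb3 in 8 of 8 mice. Itga2 (1.49) was below Rap1b in 7 of 8, the exception being TNFdARE mouse 1, where Rap1b was listed at 0, and Apbb1ip (0.0041) was below Itga2 in 8 of 8.

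**Figure D2:**
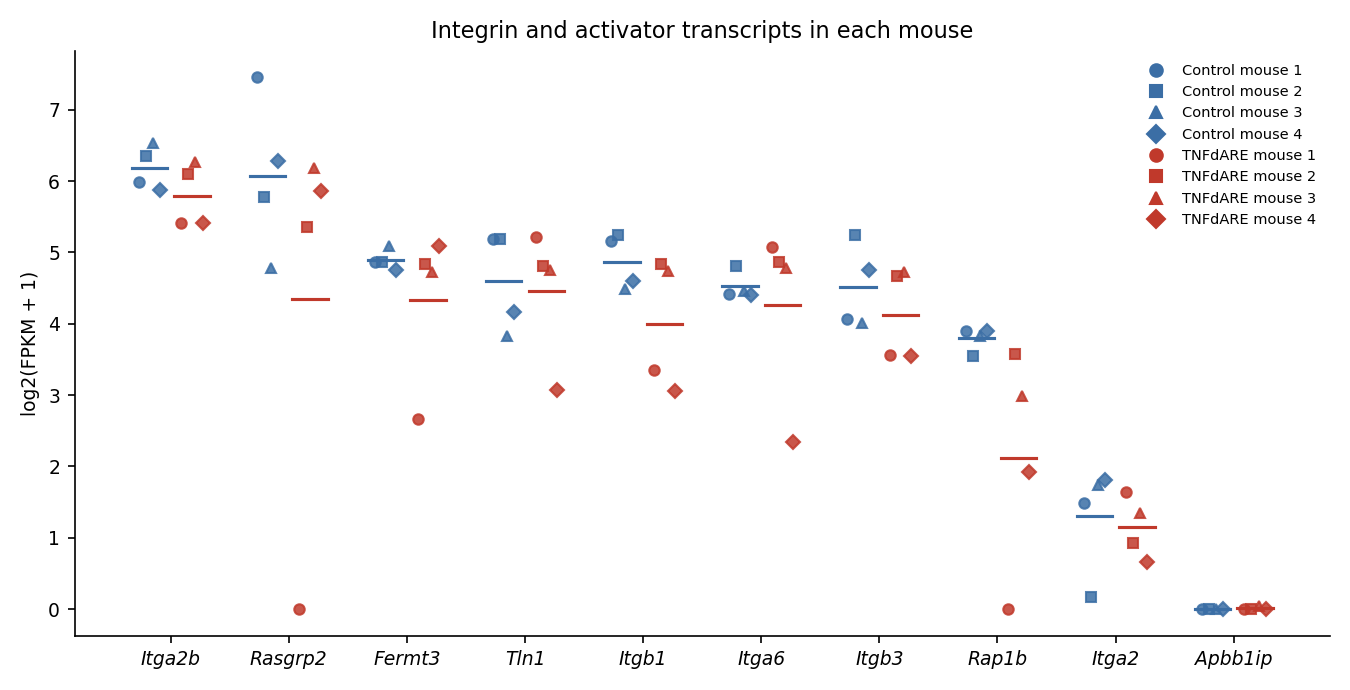
Level of each transcript as log2(FPKM + 1) in each mouse, ordered by mean, with control mice in blue, TNFdARE mice in red, a marker shape per mouse and a bar at the group mean. Rap1b and Rasgrp2 are at 0 in TNFdARE mouse 1, and Apbb1ip is at or close to 0 in all 8 mice.

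The fibrinogen receptor αIIbβ3 came first. Itga2b (chr11:102453297-102470122, minus strand), the alpha subunit that only the megakaryocyte lineage makes in quantity, was 62.5, 81.0, 91.4 and 57.6 FPKM in the control mice, in the order 1 to 4, and 41.5, 67.6, 76.0 and 41.4 in the TNFdARE mice. TNFdARE mice 1 and 4 were below every control and the other two were inside the control range, so the groups overlapped. Its mean was 73.1 ± 15.8 FPKM (SD, n = 4) in control mice and 56.6 ± 17.8 (n = 4) in TNFdARE mice. This gave a log2 fold change of -0.39 (SE 0.43), and limma's Benjamini-Hochberg adjusted p was 0.867. It was -0.26 without either TNFdARE mouse 1 or mouse 4 and -0.0047 without both. Without TNFdARE mouse 3 it was -0.55, the largest change with 1 mouse left out. Within each library Itga2b was a high transcript, at the 92.7 to 96.0 percentile of the genes tested.

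Itgb3 (chr11:104608000-104670476, plus strand), the beta subunit that carries the talin and kindlin motifs printed above, was 15.8, 37.0, 15.1 and 26.1 FPKM in control mice and 10.9, 24.3, 25.6 and 10.7 in TNFdARE mice. The same pair of TNFdARE mice was below every control. The means were 23.5 ± 10.3 FPKM (SD, n = 4) and 17.8 ± 8.2 (n = 4), with a log2 fold change of -0.40 (SE 0.55) and a limma adjusted p of 0.884. It was -0.15 without control mouse 2, -0.21 without TNFdARE mouse 1, -0.20 without TNFdARE mouse 4 and 0.18 without both of the latter. Without TNFdARE mouse 3 it was -0.60, the largest change with 1 mouse left out.

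The balance of the subunits was examined as a ratio of FPKM within each library, and tested as a difference of log2(FPKM + 1) values. Itga2b was above Itgb3 in 8 of 8 mice. The FPKM ratio was 3.6 ± 1.83 (SD, n = 4) in control mice, from 2.19 to 6.04, and 3.36 ± 0.57 (n = 4) in TNFdARE mice, from 2.78 to 3.89. All TNFdARE ratios lay inside the control range, and the log2 ratios differed by 0.0032 (two-sided exact permutation p = 1, Benjamini-Hochberg adjusted over the 2 ratios compared 1). The sign of so small a difference changed with the settings, as listed at the end.

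The beta subunits were compared in the same way, since Itgb3 pairs with αIIb and Itgb1 with α2 and α6. The ratio of Itgb3 to Itgb1 was 0.82 ± 0.30 (SD, n = 4) in control mice, from 0.46 to 1.13, and 1.13 ± 0.25 (n = 4) in TNFdARE mice, from 0.88 to 1.46. The log2 ratio was 0.48 higher in TNFdARE mice and the ranges overlapped (exact permutation p = 0.2, adjusted 0.4). It was 0.24 without control mouse 1 and 0.26 without TNFdARE mice 1 and 4.

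**Figure D3:**
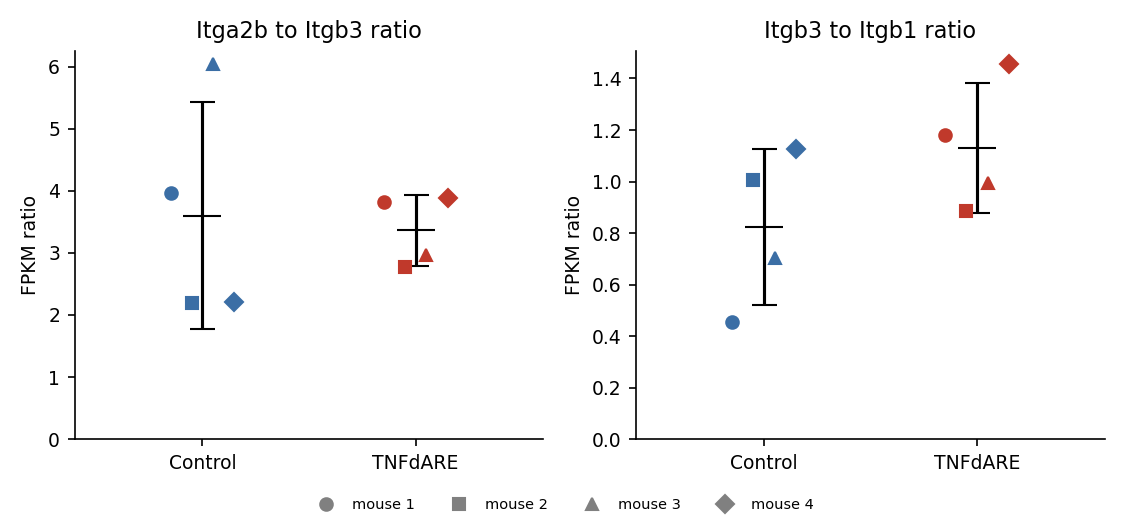
FPKM ratio of Itga2b to Itgb3 (left) and of Itgb3 to Itgb1 (right) in each mouse, with a marker shape per mouse and bars at the mean ± SD of 4 mice. The TNFdARE ratios of Itga2b to Itgb3 (2.78 to 3.89) lie inside the control range (2.19 to 6.04).

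Among the subunits of the collagen and laminin receptors, Itgb1 (chr8:128685654-128733200, plus strand), the common beta subunit, was 34.6, 36.8, 21.5 and 23.1 FPKM in control mice and 9.19, 27.5, 25.7 and 7.31 in TNFdARE mice. TNFdARE mice 1 and 4 were again below every control. The means were 29.0 ± 7.8 FPKM (SD, n = 4) and 17.4 ± 10.6 (n = 4), with a log2 fold change of -0.88 (SE 0.57) and a limma adjusted p of 0.860. With 1 mouse left out it ran from -1.16 (without TNFdARE mouse 2) to -0.56 (without TNFdARE mouse 4). It was -0.085 without TNFdARE mice 1 and 4.

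Itga6 (chr2:71745616-71858416, plus strand), the laminin receptor's alpha subunit, was 20.4, 27.0, 21.1 and 20.2 FPKM in control mice and 32.6, 28.0, 26.5 and 4.07 in TNFdARE mice. TNFdARE mouse 4 was far below the controls, while mice 1 and 2 were above all of them. The log2 fold change was -0.26 (SE 0.64, limma adjusted p 0.936) and was 0.38 without TNFdARE mouse 4. The value of Itga6 is uncertain, because 326 bases of it are identical to a processed pseudogene on another chromosome, Gm29397 (chr9:92976226-92976558). Gm29397 was listed at 36.0 FPKM in control mouse 2 and 279 in TNFdARE mouse 1 and at 0 in the other 6, and these are the control mouse and the TNFdARE mouse with the highest Itga6. How the authors' counting divided such reads is not given in the sources used here, and its part in the Itga6 values was not tested.

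Itga2 (chr13:114833081-114932100, minus strand), the collagen receptor's alpha subunit, was low, at 1.80, 0.128, 2.34 and 2.51 FPKM in control mice and 2.12, 0.898, 1.54 and 0.586 in TNFdARE mice. The groups overlapped widely, and the log2 fold change was -0.16 (SE 0.69, limma adjusted p 0.972) on a scale that understates changes of low genes. It was -0.53 without control mouse 2, -0.013 without control mouse 3, 0.011 without control mouse 4, 0.0013 without TNFdARE mouse 4, -0.17 without TNFdARE mice 1 and 4, and 0.14 by quantile normalization. Itga6 exceeded Itga2 in all 8 mice, with its lowest value, 4.07 FPKM, above the highest Itga2 value, 2.51.

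The proteins that bind the beta tail followed. Fermt3 (chr19:6998958-7019469, minus strand), kindlin-3 of blood cells, was 28.0, 28.3, 33.1 and 26.0 FPKM in control mice and 5.35, 27.6, 25.4 and 33.1 in TNFdARE mice. One library, TNFdARE mouse 1, was far below the rest, and the other 7 lay between 25.4 and 33.1. Its log2 fold change was -0.56 (SE 0.59, limma adjusted p 0.867), and it was -0.011 without TNFdARE mouse 1 alone, -0.82 without TNFdARE mouse 4 alone and -0.11 without both.

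Tln1 (chr4:43531519-43562691, minus strand), talin-1, was 35.6, 35.3, 13.2 and 16.9 FPKM in control mice and 36.0, 26.9, 25.9 and 7.38 in TNFdARE mice. Control mice themselves spanned 13.2 to 35.6, and TNFdARE mouse 1, low for most of the other transcripts, had the highest talin value of the 8. The log2 fold change was -0.13 (SE 0.60, limma adjusted p 0.973), and it turned to 0.02 under quantile normalization and to 0.33 without TNFdARE mouse 4. It was 0.066 without control mouse 1, 0.062 without control mouse 2 and 0.18 without TNFdARE mice 1 and 4. Without control mouse 3 or TNFdARE mouse 1 it was -0.39, and with any 1 other mouse left out it was -0.28 to -0.23. The genes Trpt1 and Creb3 overlap Fermt3 and Tln1 on the opposite strand, at 0 in all mice for Trpt1 and 0 to 1.92 FPKM for Creb3, and whether strand was used in counting is not given in the sources used here.

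The Rap1 switch held the lowest unadjusted p of the 9 transcripts. Rap1b (chr10:117813871-117846035, minus strand), the Rap1 form platelets mainly use, was 13.8, 10.7, 13.2 and 13.9 FPKM in control mice and 0, 10.9, 6.90 and 2.77 in TNFdARE mice. The controls lay close together, 3 of 4 TNFdARE mice were below the lowest of them, and TNFdARE mouse 2 was just above it, so the groups overlapped. The log2 fold change was -1.68 (SE 0.75, 95% confidence interval -3.30 to -0.05), with an unadjusted limma p of 0.0447, an adjusted p of 0.860 and an exact permutation p of 0.0571. The unadjusted p was 0.0954 without TNFdARE mouse 1, where the log2 fold change was -0.97, 0.0725 without TNFdARE mouse 4, and between 0.0648 and 0.0855 without any 1 control mouse. Taking TNFdARE mice 2 and 3 alone, it was -0.51 with an unadjusted limma p of 0.277. Its relative Rap1a was 0 to 0.309 FPKM.

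Rasgrp2 (chr19:6399340-6415216, plus strand), the calcium-sensing exchange factor CalDAG-GEFI, was 174, 53.6, 26.4 and 76.8 FPKM in control mice and 0, 39.8, 71.9 and 57.0 in TNFdARE mice. It varied most among the controls, and 3 TNFdARE mice lay within their range while TNFdARE mouse 1 was listed at 0. Its log2 fold change of -1.72 (SE 1.14, limma adjusted p 0.860) was -0.27 without TNFdARE mouse 1 alone, -2.22 without TNFdARE mouse 4 alone and -0.30 without both. A non-coding gene, Gm14965, overlaps it on the other strand and was 3.52 FPKM in control mouse 4 and 0 elsewhere.

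Apbb1ip (chr2:22774094-22875653, plus strand), RIAM, was listed at 0 in 7 of 8 libraries and at 0.0326 FPKM in TNFdARE mouse 3, the library with the most genes above 0. It was below the filter and not tested.

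Over the members, the log2 fold change was below 0 for 9 of 9 tested, with exceptions under other scalings for Tln1 (0.02) and Itga2 (0.14) by quantile normalization and for Tln1 (0.05) after rescaling without AY036118 and globins. Of all 1534 genes tested, 63.0% were below 0. The median was -0.40 for the 9 and -0.30 for all genes, so the 9 are read against a whole table shifted the same way. By quantile normalization the medians were -0.32 and -0.06, and after rescaling without AY036118 and globins -0.21 and -0.18. At an unadjusted limma p under 0.05, 1 of 9 was called, Rap1b, against 4.50% of all genes in either direction and 2.74% lower in TNFdARE mice. Rap1b was not called under 14 of 21 alternatives. Among these were quantile normalization (log2 fold change -1.31, unadjusted limma p 0.0867), limma without a trend (-1.68, p 0.0507) and sample weights (-0.77, p 0.131). After Benjamini-Hochberg adjustment 0 of 9 passed, as did 0% of all 1534 genes, of which 69 had an unadjusted p under 0.05, 27 higher and 42 lower. That split turned to 34 higher and 25 lower by quantile normalization, 74 and 37 with sample weights, 32 and 34 after rescaling without AY036118 and globins, and 40 and 11 without TNFdARE mice 1 and 4. The groups did not overlap for 0 of 9, against 3.32% of all genes.

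Without TNFdARE mice 1 and 4, 6 of 9 were below 0, against 48.0% of all genes, and the median was -0.09 for the 9 and 0.01 for all. Itga6 (0.29), Tln1 (0.18) and Itgb3 (0.18) were then above 0. Mouse by mouse, 6 of 9 transcripts were below every control in TNFdARE mouse 1, 0 in mouse 2, 2 in mouse 3 and 6 in mouse 4, against 27.6%, 8.87%, 7.30% and 24.1% of all genes. Rap1b was the one below every control in mice 1, 3 and 4, and Fermt3 joined it in mouse 3. Itga2b, Itgb3, Itgb1 and Rap1b were below every control in both mouse 1 and mouse 4. Those mice differed in the remainder, with Fermt3 and Rasgrp2 low in mouse 1 and Itga6 and Tln1 low in mouse 4.

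**Figure D4:**
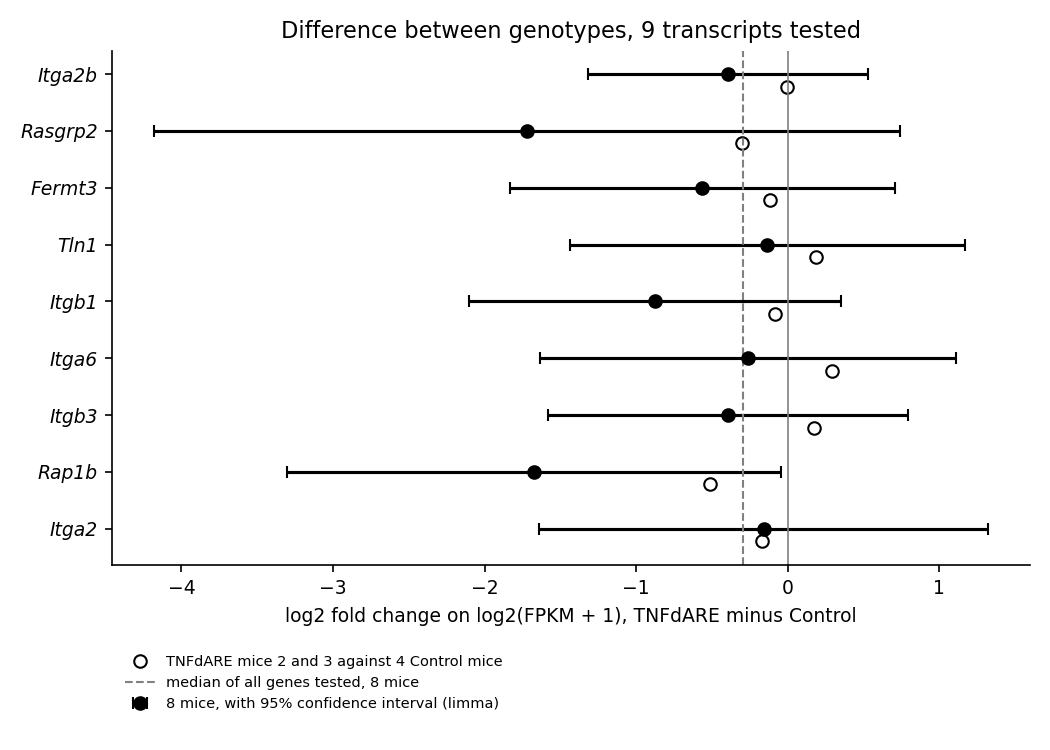
Log2 fold change on log2(FPKM + 1), TNFdARE minus control, of the 9 tested transcripts, with limma's 95% confidence interval from 8 mice (filled) and the value from TNFdARE mice 2 and 3 against the 4 control mice (open). The dashed line is the median of all genes, -0.30, and the interval of Rap1b alone, -3.30 to -0.05, does not reach 0.

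The effect of genotype was also compared between males and females. At an unadjusted p under 0.05, limma's interaction of genotype with sex called 0 of 9 transcripts, against 3.52% of all genes. The lowest adjusted p was 0.917 among the 9 and 0.166 among all genes, with 2 mice per genotype and sex.

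The wider pathway was described with 6 lists of 110 genes, chosen by role. Of these, 45 were listed at 0 in all 8 libraries and 36 were tested, of which 27 were below 0 and 9 above, with a median of -0.31, beside 63.0% below 0 and a median of -0.30 over all genes. Without TNFdARE mice 1 and 4, 16 of the 36 were below 0, with a median of 0.03. By quantile normalization the medians of the list genes and of all genes were -0.05 and -0.06. They were 0.08 and -0.01 with sample weights, and -0.16 and -0.18 after rescaling without AY036118 and globins. With 1 mouse left out the list median ran from -0.44 (without control mouse 3) to -0.10 (without control mouse 1). By limma 1 of 36 had an unadjusted p under 0.05, against 4.50% of all genes, and 0 passed the adjustment. That gene was Cd226, an adhesion receptor that associates with integrins, at 11.3, 8.54, 2.88 and 11.5 FPKM in control mice and 0, 3.15, 3.43 and 0 in TNFdARE mice. The pair at 0 were again TNFdARE mice 1 and 4, and control mouse 3 was below TNFdARE mice 2 and 3. Its log2 fold change was -2.07 (SE 0.76, unadjusted limma p 0.0176, adjusted p 0.860, exact permutation p 0.0857). Without control mouse 4 the log2 fold change was -1.89 (unadjusted limma p 0.0560). Without TNFdARE mice 1 and 4 it was -1.02 (unadjusted limma p 0.143).

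Of 22 other integrin subunits, 16 were listed at 0 in all libraries, Itgav, the αv partner of β3 in the vitronectin receptor, among them. The 3 tested were Itgb5 (mean 24.6 FPKM), the β5 subunit that pairs with αv, and Itgb2 (16.8) and Itgal (6.68), which form the leukocyte integrin LFA-1. Itgb2 was 11.1 to 28.5 and Itgal 3.87 to 9.08 FPKM over the 8 mice. Both are also in the leukocyte marker list, of which Lyz2 (11.9 to 50.3 FPKM) was likewise above 0 in all 8 libraries, Cd74 was 0 to 13.7, S100a9 and Csf1r were above 0 in TNFdARE mice alone and 6 others were at 0 in all, and the part of other cells in these values was not tested. The log2 fold changes were -0.20 for Itgb5, 0.31 for Itgb2 and -0.03 for Itgal, and 0 of 3 had an unadjusted limma p under 0.05, against 4.50% of all genes. Without TNFdARE mouse 1 Itgb5 turned to 0.32 and Itgb2 was 0.097, Itgal moved between -0.24 and 0.13 with 1 mouse left out, and without TNFdARE mice 1 and 4, 0 of 3 were below 0.

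The Rap1 switch list, beyond Rap1b and Rasgrp2, had 2 of 21 genes tested, 11 above 0 in at least 1 library and 10 listed at 0 in all. Rasa3, which turns Rap1 off in platelets, had a mean of 4.53 FPKM and a log2 fold change of -0.17, which was 0.54 without control mouse 1 (18.2 FPKM). With 1 other mouse left out it ran from -0.71 (without control mouse 3) to -0.095 (without TNFdARE mouse 3). Without TNFdARE mice 1 and 4 it was -0.33. Rap2a (1.46) had a log2 fold change of 0.39, which was 0.065 without control mouse 1 and 0.046 without TNFdARE mice 1 and 4. Rap2b was 0.618 FPKM on average and was not tested.

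Talin and kindlin relatives and adhesion adaptors gave 12 tested of 26, of which 11 were below 0, with a median of -0.52 and 0 at an unadjusted p under 0.05. Over all genes 63.0% were below 0 with a median of -0.30, and 4.50% had an unadjusted limma p under 0.05. Without TNFdARE mice 1 and 4, 7 of the 12 were below 0 and the median was -0.28. The non-platelet forms Tln2, Fermt1 and Fermt2 were listed at 0 in all 8 libraries. The highest were Zyx (zyxin, mean 167 FPKM), Parvb (β-parvin, 94.8) and Flna (filamin A, 23.8). Parvb, which binds integrin-linked kinase, was 192, 125, 88.7 and 94.2 FPKM in control mice and 27.9, 80.6, 62.4 and 87.0 in TNFdARE mice, and Vcl (vinculin), which binds talin under tension, was 2.66 to 4.4 in control and 0 to 2.61 in TNFdARE mice. For both the groups did not overlap, by a narrow margin (87.0 against 88.7, and 2.61 against 2.66). They were the 2 of 36 tested list genes without overlap, against 3.32% of all genes. The log2 fold changes were -0.996 (SE 0.477) and -1.01 (SE 0.67), and -0.74 and -0.51 without TNFdARE mice 1 and 4, and the limma adjusted p was 0.860 for each. With 1 mouse left out, that of Parvb ran from -1.18 (without TNFdARE mouse 4) to -0.64 (without TNFdARE mouse 1). That of Vcl ran from -1.20 (without TNFdARE mouse 2) to -0.59 (without TNFdARE mouse 4). Vcl lies outside the rule for naming genes and was chosen after its values were seen.

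Outside-in signalling, the kinases and GTPases that act once an integrin has bound, gave 10 tested of 25, with 7 below 0, 3 above and 0 at an unadjusted limma p under 0.05, against 63.0% below 0 and 4.50% called over all genes. Without TNFdARE mice 1 and 4, 4 of the 10 were below 0 and the median turned from -0.40 to 0.16. The gene with the highest mean in this list is not reported here, though the counts above include it. Among the highest were Rac1, a GTPase of platelet spreading (mean 10.7 FPKM), and Lyn, a Src-family kinase (10.7), with log2 fold changes of -0.45 and -0.50. Lyn turned to 0.46 without TNFdARE mouse 1 (0.050 FPKM) and 0.51 without TNFdARE mice 1 and 4, and Rac1 was -0.17 without control mouse 4, -0.22 without TNFdARE mouse 4 and 0.014 without TNFdARE mice 1 and 4.

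Of 8 integrin ligands, 5 were at 0 in all libraries, the fibrinogen chains Fga, Fgb and Fgg among them, Fn1 (fibronectin) was 0.199 FPKM in TNFdARE mouse 2 alone, and Vwf (von Willebrand factor, mean 60.3 FPKM) and Thbs1 (thrombospondin-1, 21.0) were tested. Vwf was 200 FPKM in control mouse 1 and between 27.2 and 51.8 in the other 7 mice, so that 1 control library stood above the rest. The log2 fold changes were -0.87 for Vwf (-0.34 without control mouse 1) and -0.30 for Thbs1 (0.017 without TNFdARE mouse 4 and 0.20 without TNFdARE mice 1 and 4), and 0 of 2 had an unadjusted limma p under 0.05, against 4.50% of all genes.

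Of 8 integrin-associated membrane proteins, 7 were tested, with 4 below 0 and 3 above, against 63.0% of all genes below 0. Without TNFdARE mice 1 and 4, 3 of the 7 were below 0 and the median turned from -0.32 to 0.20. The tetraspanins Cd9 (mean 150 FPKM) and Cd151 (10.8) had log2 fold changes of -0.32 and 1.29, the latter 0.45 without control mouse 1, where Cd151 was listed at 0, and the junction protein Esam (20.4) one of 0.59. Without control mouse 2 (3.52 FPKM) that of Esam was 0.033, without TNFdARE mouse 3 it was 0.32, and without TNFdARE mice 1 and 4 it was 1.08. That of Cd9 was -0.15 without TNFdARE mouse 4 and -0.16 without control mouse 3. Cd226, above, was the 1 of 7 with an unadjusted limma p under 0.05, against 4.50% of all genes.

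**Figure D5:**
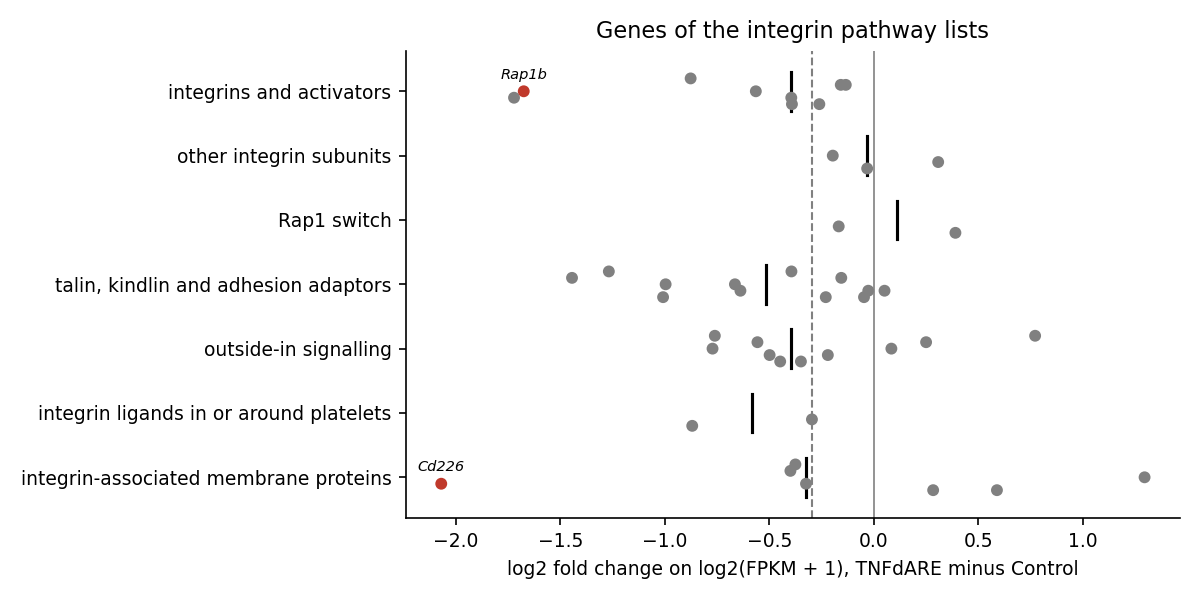
Log2 fold change on log2(FPKM + 1), TNFdARE minus control, of the 9 tested transcripts and of the tested genes of 6 pathway lists, with 1 point per gene and a bar at each median. Red marks an unadjusted limma p under 0.05, reached by Rap1b and Cd226, and the dashed line is the median of all genes, -0.30.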

How the data were processed

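Platelet RNA of 4 TNFdARE and 4 control mice was sequenced as 150 bp reads. The deposited table of the authors gives each gene a single value in each mouse, read here as FPKM, since the submitters' processing notes name Cufflinks and mm10 and the columns sum to unequal totals, which CPM or TPM would not. The study's methods name CPM for its spatial data with a reference to the bulk RNA, so the unit stays an inference. Versions, aligner settings, strand and the handling of multiply mapped reads are not given in the sources used here. FPKM are not counts and no step worth 1 read was found in every library, so depth and counting error are unknown and no count model was used. Each column was matched to its mouse by the library name, with 0 value columns unmapped, and 165 entries repeat a symbol.

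Genes whose FPKM averaged 1 or more were compared after log2 transformation with a pseudocount of 1, using limma 3.58.1 under R 4.3.3 (trended empirical Bayes, Benjamini-Hochberg adjustment over all 1534 genes), with a second fit adding sex and its interaction. Single genes and ratios were compared by two-sided exact permutation tests of group means (smallest p 0.0286). Coordinates, transcripts and tails are from GENCODE M21, with the transcript of the longest coding sequence used for each gene, and similar transcripts were found with BLAST 2.17.0 (at least 150 bases at 95% identity). The members and lists were chosen with earlier results of these data known. Genes named are the 10 members, list genes with an unadjusted p under 0.05, the 3 of each list with the highest mean, and markers, except 1 gene that is not reported here. Vcl, Rap1a, Itgav, Tln2, Fermt1, Fermt2, Fga, Fgb and Fgg lie outside this rule and were named after their values were seen. Also outside it are Trpt1, Creb3 and Gm14965, which overlap a member, Gm29397, which shares sequence with one, and AY036118. Alternatives were pseudocounts of 0.1 and 5, no filter or a mean of at least 5, 3 other scalings, limma without a trend or with sample weights, sex or the replicate number as a term, leaving out each mouse, and, chosen after seeing the data, leaving out TNFdARE mice 1 and 4 and rescaling without AY036118 and globins. Figures used matplotlib 3.10.9.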

Additional observations from a re-analysis of the deposited data

Results flagged for a closer look

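Among 25 groups of 4 mice examined for 1 value far from the other 3, 2 were picked out, and chance gives about 1.25. Itga6 in control mice was one, where mouse 2, at 27.0 FPKM, lay apart from the other 3 (20.2 to 21.1), with a gap of 0.877 of the group's range. In that library the pseudogene Gm29397, which shares 326 bases with Itga6, was at 36.0 FPKM, and its part was not tested. Apbb1ip in TNFdARE mice was the other, with a gap of 1, because mouse 3 (0.0326 FPKM) was the only one above 0.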

How the results depend on the processing

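Of 188 log2 fold changes of the tested members under 21 alternatives, 159 kept their direction and side of the unadjusted threshold, 14 were no longer below 0.05 (all Rap1b) and 15 changed sign. The causes were not tested. Rap1b stayed below 0 in all 21 (-2.58 to -0.51, p 0.0172 to 0.277, adjusted p 0.611 to 0.998). The count of members with an unadjusted p under 0.05, 1 by the main settings, was 0 with a pseudocount of 0.1, no filter, a mean of at least 5, quantile normalization, limma without a trend, sample weights, without TNFdARE mice 1 and 4, and after rescaling without AY036118 and globins, and 0 to 1 with 1 mouse left out. The count for the pathway lists, 1 of 36, was 2 of 19 with a mean of at least 5, where 36 of all 583 genes were called. It was 2 of 36 after rescaling without AY036118, which called 67 of all 1534 genes. With sample weights it was 3, with 111 of all 1534 genes called against 69 by the main settings. It was 0 without TNFdARE mice 1 and 4, and 0 to 2 with 1 mouse left out. The interaction with sex called 0 members, and 0 to 2 with 1 mouse left out, being 1 without TNFdARE mouse 2, where 130 of all 1509 genes were called, and 2 without TNFdARE mouse 3, with 214 of 1547, against 54 of 1534 with all mice.

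The log2 fold change of Itga2b was 0.014 with sample weights. That of Tln1 was 0.019 by quantile normalization, 0.25 with sample weights, 0.18 without TNFdARE mice 1 and 4, 0.050 after rescaling without AY036118 and globins, and -0.39 to 0.33 with 1 mouse left out. That of Itga6 was 0.19 with sample weights, 0.29 without TNFdARE mice 1 and 4 and -0.53 to 0.38 with 1 mouse left out. That of Itgb3 was 0.18 without TNFdARE mice 1 and 4, and that of Itga2 0.14 by quantile normalization and -0.53 to 0.011 with 1 mouse left out. The difference in log2 ratio of Itga2b to Itgb3 was -0.043 with a pseudocount of 5, -0.082 by quantile normalization, -0.18 without TNFdARE mice 1 and 4 and -0.18 to 0.29 with 1 mouse left out. That of Itgb3 to Itgb1 stayed above 0 in all 17 alternatives (0.24 to 0.65).

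The replicate number did not pair the mice (correlations of same-numbered mice -0.07 to 0.06). With it as a block the members' count was 1 and the count over all genes 64 against 69, and the interaction with sex then leaves 1 residual degree of freedom, so its 0 carries no weight. Each lone fit with 1 mouse fewer of a sex and genotype assumes that the remaining mouse varies like the others. With 4 mice per group, the confidence intervals shown are wide, and a p that misses the threshold does not show that levels were equal. The depth is unknown.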
